A study of Rattus norvegicus with 12 samples.

Results

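Rat intestine after removal of the colon was compared with rat intestine before it, gene by gene. The comparison used 8 of the 12 libraries of the series, chosen by their sample titles, with 4 from the postoperative group postSTC (replicates 1, 2, 5 and 7) and 4 from the preoperative group preSTC (replicates 1, 5, 7 and 9). All 8 were polyadenylated RNA of intestine from WT rats in batch 1. The other 4 libraries, preCTC, were taken before a sham operation. They entered the filter on low counts, the scaling and the estimate of the spread between replicates. In the 12-library fit with the replicate number as a block, they also entered the fold changes. The labels give no strain, sex or age of the rats, no segment of intestine, no time between operation and sampling, and no meaning of the letters STC and CTC. Whether each replicate is its own animal is not stated, so p-values measure only how far these libraries spread, and that spread may be technical. No sample from after a sham operation was analysed here. The effects of the operation, of the time that passed and of the segment sampled therefore cannot be told apart.

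The lining of the small intestine is renewed without pause from dividing cells in the crypts, whose daughters become absorptive enterocytes, mucus-secreting goblet cells or Paneth cells that release antibacterial peptides. Enterocytes carry a brush border of microvilli with enzymes and transporters for nutrients, while the colon mainly takes up salt and water. Position along the gut is marked by homeobox genes of the Hox clusters, whose highest-numbered members are active towards the hind end. Loss of the colon is known to be followed by adaptation of the remaining bowel, in which the small intestine takes over part of the uptake of salt and water.

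Libraries held 30095656 to 39374682 counts, and 15704 of 18749 genes passed the filter on low counts and were tested. In postSTC7, 13 seminal vesicle and prostate genes took 44.8% of all counts. These genes took 0.0183 to 0.0253% in the other 3 postSTC libraries and 0.0203% in preSTC7, and 2 to 11 counts in all in each of preSTC1, preSTC5 and preSTC9. Semg1, the gene of a seminal clotting protein, stood at 305494 CPM in postSTC7 and at 85.3 CPM in preSTC7. CPM here means counts scaled to a common library size by the TMM method, with those 13 genes left out of the size and the scaling. The median SD of a gene over the 4 libraries of a group was 0.352 on the log2 CPM scale in postSTC, 0.246 without postSTC7 and 0.190 in preSTC. Of 1535 genes whose SD over the postSTC libraries was above 1 on that scale, postSTC7 lay farthest from the group's mean in 922 and postSTC1 in 300. The 8 checked genes of intestinal epithelium, among them Epcam and Cdx2, were present in every library, with a summed level of 13636 to 17781 CPM in preSTC and 6269.6 to 14359 CPM in postSTC. The lowest of these sums was in postSTC7.

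After the operation, most tested genes of chromatin assembly, DNA repair and ribosome building were lower (17 of 18, 14 of 23 and 17 of 26), and so were the antibacterial lectins Reg3b and Reg3g and the Paneth cell defensins. Genes of the hind end of the gut, such as Hoxd13, Hoxb13 and Atp12a, rose from near 0. Of the proteoglycans and hyaluronan genes of the connective tissue, 11 of 23 rose and 1 fell. Enzymes that build mucin sugar chains moved both ways, with 5 of 28 higher and 5 lower. In all, 2815 of the 15704 tested genes (17.9%) changed, with edgeR's quasi-likelihood test and Benjamini-Hochberg adjustment over all genes at 0.05. Of these, 1671 were higher in postSTC (10.6% of genes tested) and 1144 lower (7.28%). The changes upward were larger. The median log2 fold change was 1.12 among the higher genes and -0.60 among the lower ones, and 945 higher genes (6.02% of genes tested) but 229 lower genes (1.46%) changed at least 2-fold. A change of at least 4-fold was found for 363 higher and 23 lower genes. The CPM of the 2 groups did not overlap for 2433 of the 2815 genes, where 22% of all tested genes did not overlap. The preCTC mean, also preoperative, lay on the same side of the preSTC mean as the postSTC mean for 1594 higher and 1115 lower genes. It did so for 12042 of the 15704 tested genes, and both comparisons share the preSTC mean.

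The count of called genes fell to 1628, 1857 and 1683 when preSTC1, preSTC5 or preSTC7 was left out, and 1345 genes were called in each of the 8 fits without 1 library. Leaving out preSTC9 brought the higher genes to 1093, and leaving out postSTC5 the lower genes to 745. Without postSTC1, 3740 genes were called (23.6%), 2071 higher (13%) and 1669 lower (10.5%). Without postSTC7, 2907 genes were called (18.3% of those tested), 1752 higher (11%) and 1155 lower (7.27%), and 2334 of the 2815 were among them in the same direction. Keeping the seminal genes in the scaling moved the split to 1749 higher and 1084 lower. Same-numbered libraries of the 2 groups deviated together, so a fit with the replicate number as a block is given beside the results. In all 12 libraries it called 1760 genes (11.2%), 1002 higher (6.38%) and 758 lower (4.83%), and the counts of list members in that fit are given below as blocked counts. Counts in a list are to be read beside 10.6% higher and 7.28% lower of all tested genes, or 6.38% and 4.83% blocked. In the 8 libraries alone the block rested on the 3 shared numbers and called 65 genes (0.425%), 58 higher (0.379%) and 7 lower (0.0458%), with 3456 genes at an unadjusted p under 0.05. With the block as a random effect in limma voom, added after the data were seen, 3187 genes were called (20.3%), 1590 higher (10.1%) and 1597 lower (10.2%). Among the members of the gene lists, families left aside, the 8-library block called only Hspb1, Hoxa13, Hoxb13, Hoxd13, the proline oxidase gene Prodh1 and 11 seminal genes. Of the 144 genes named by rule and called, 128 kept their call without postSTC7, 102 in the 12-library block and 13 in the 8-library block.

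**Figure D1:**
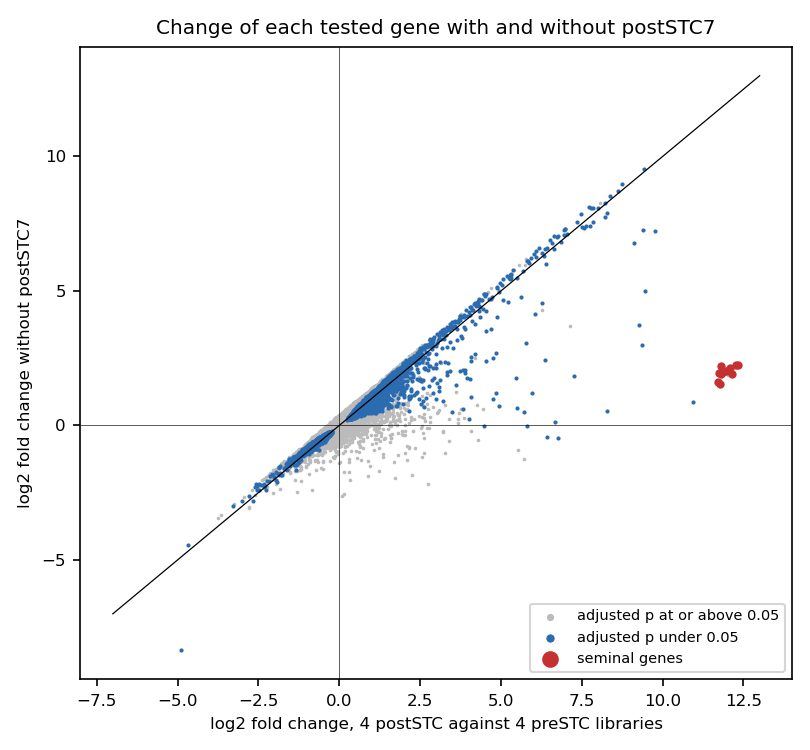
Log2 fold change of each tested gene in 4 postSTC against 4 preSTC libraries (horizontal axis) and without postSTC7 (vertical axis). Each point is a gene, blue where the adjusted p was under 0.05 and red for the seminal genes, which lie near 12 with postSTC7 and near 2 without it, while most other points follow the diagonal line.

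Homeobox genes of the hind gut were among the 15 genes of largest rise that were called with and without postSTC7, did not overlap and reached a mean of 10 CPM in postSTC. Trpv6, described below, had the largest log2 fold change of the 15, followed by Hoxd13. Values per library are given throughout in the order preSTC1, preSTC5, preSTC7, preSTC9 and postSTC1, postSTC2, postSTC5, postSTC7. Hoxd13 stood at 0.0622, 0.135, 0 and 0.0295 CPM in preSTC and 51.0, 21.0, 65.6 and 31.8 CPM in postSTC. All 4 postSTC libraries were high, and the highest preSTC value was under 1 CPM. Hoxd13 rose by 9.43 ± 1.44 on the log2 scale (± SE, with edgeR adjusted p = 0.00224, and 0.0074 in the 8-library block). Hoxb13 stood at 0.311, 0.324, 0.144 and 0.0589 CPM in preSTC and 99.3, 44.1, 129 and 63.8 CPM in postSTC, a log2 fold change of 8.62 ± 1.40 (± SE, with edgeR adjusted p = 0.00265). Hoxa13 went from 0.0498 ± 0.0245 to 13.9 ± 7.32 CPM (SD, n = 4) and Hoxd11 from 0.0338 ± 0.0675 to 11.9 ± 4.83 CPM (SD, n = 4), with edgeR adjusted p of 3.29e-05 and 0.00235. With the block as a random effect Hoxa13 kept its call, while Hoxd13, Hoxb13 and Hoxd11 lost theirs (limma adjusted p = 0.224, 0.344 and 0.0632). Over the preCTC libraries Hoxd13, Hoxb13 and Hoxd11 ran from 1.79 to 146, 1.52 to 471 and 0.960 to 33.8 CPM. Hoxa13 ran there from 42.8 to 67.9 CPM. Without preCTC, in the 8-library block, Hoxb13, Hoxa13 and Hoxd11 were called as well (edgeR adjusted p = 0.00175, 0.00529 and 0.0433). In each of these genes the order of the postSTC libraries was the same at the top, with postSTC5 highest and postSTC2 lowest.

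Of the 32 tested genes of the Hox clusters, 16 were higher, with a median log2 fold change of 1.41 against 0.02 over all tested genes. Without postSTC7 17 were higher, and the blocked count was 13. Hoxa11, named after its values were seen, stood at 0, 0.0270, 0 and 0.0295 CPM in preSTC and 2.15, 2.60, 4.05 and 5.09 CPM in postSTC (edgeR adjusted p = 0.000272). Among 12 tested transcription factors that mark small intestine or colon, the 4 that rose were Hoxa13, Hoxb13, Hoxd13 and Hoxd10, and without postSTC1 another 3 fell. Cdx2, which maintains intestinal identity along the whole bowel, had 350.1, 232, 300.0 and 327 CPM in preSTC and 271, 207, 154 and 89.8 CPM in postSTC, and the groups overlapped (edgeR adjusted p = 0.118).

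Several genes of surface defence and ion transport rose from low levels. Atp12a, the proton-potassium pump of the colon surface, stood at 0.808, 0.783, 0.259 and 0.413 CPM in preSTC and 192, 56.1, 154 and 308 CPM in postSTC (edgeR adjusted p = 0.00352). Lpo, the secreted enzyme lactoperoxidase, went from 1.53 ± 0.877 to 202 ± 104 CPM (SD, n = 4), and its log2 fold change was 7.03 ± 0.58 (± SE, with edgeR adjusted p = 0.000268), and it was called in both blocked fits. Retnlb, a resistin-like protein of goblet cells, stood at 0.404, 0.0810, 0.0862 and 0.0295 CPM in preSTC and 32.3, 50.8, 14.4 and 82.1 CPM in postSTC. Its relative Retnla, known from alternatively activated macrophages, stood at 0.0311, 0, 0.144 and 0.354 CPM in preSTC and 16.7, 35.2, 17.3 and 37.3 CPM in postSTC. The postSTC values of both genes were all above 10 CPM, and no preSTC value reached 1 CPM (edgeR adjusted p = 0.000655 and 0.000418). The mucosal pentraxin gene Mptx1 was uneven after the operation, with 2.05, 1.89, 4.22 and 2.03 CPM in preSTC and 399, 1007, 27.7 and 934 CPM in postSTC (edgeR adjusted p = 0.00873). The transglutaminase gene Tgm3 and Sval1, a secreted protein gene named for its likeness to a seminal vesicle antigen, were highest in postSTC5 and lowest in postSTC7. Sval1 stood at 0.528, 1.11, 0.374 and 0.383 CPM in preSTC and 79.4, 67.7, 350.0 and 34.5 CPM in postSTC (edgeR adjusted p = 0.00304), and Tgm3 went from 1.05 ± 0.462 to 133 ± 116 CPM (n = 4, ± SD, with edgeR adjusted p = 0.00657). Under the random block Atp12a, Mptx1, Sval1 and Tgm3 were not called (limma adjusted p = 0.26, 0.197, 0.182 and 0.232), and Lpo, Retnlb and Retnla were. Over the preCTC libraries the lost genes ran from 2.13 to 1184, 1.33 to 1692, 7.57 to 604 and 5.39 to 1721 CPM. The kept genes ran there from 272 to 684, 13.3 to 66.0 and 22.8 to 93.4 CPM. Without preCTC, in the 8-library block, Atp12a, Sval1 and Tgm3 were called (edgeR adjusted p = 0.0239, 0.00949 and 0.0244). Mptx1 was not (edgeR adjusted p = 0.0767). The part of the preCTC spread in the lost calls was not tested.

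For 4 of the genes of largest rise, the size rested on 1 library, and only through it did each reach the mean of 10 CPM needed to be named. Trpv6, the apical calcium channel gene, stood at 0.404, 0.243, 0.374 and 0.118 CPM in preSTC and 12.3, 3.09, 12.0 and 781 CPM in postSTC, and its log2 fold change of 9.46 became 4.99 without postSTC7 (edgeR adjusted p = 0.000691). Gdf10, a growth factor gene of the TGF beta family, stood at 0, 0, 0.0575 and 0 CPM in preSTC and 0.623, 1.96, 3.39 and 34.3 CPM in postSTC, with a log2 fold change of 6.80 without postSTC7. Pou3f3, a transcription factor gene, stood at 0, 0, 0.0287 and 0.0295 CPM in preSTC and 0.138, 0.129, 0.441 and 44.2 CPM in postSTC, with a log2 fold change of 3.74 without postSTC7. Both Gdf10 and Pou3f3 had only 2 counts in all preSTC libraries together. The ratio of postSTC to preSTC CPM was 531 for Gdf10 (95% counting interval 147 to 4395) and 546 for Pou3f3 (95% counting interval 151 to 4512). Lct, the gene of the milk sugar enzyme lactase, stood at 0.311, 0.567, 0.230 and 0.147 CPM in preSTC and 260.2, 7.54, 0.579 and 0.682 CPM in postSTC. It was high in postSTC1, and its log2 fold change of 7.71 became 3.21 without that library (edgeR adjusted p = 0.0461). Lct and Pou3f3 were not called in the 12-library block (edgeR adjusted p = 0.229 and 0.0544), nor were Lct, Pou3f3 and Trpv6 with the random block (limma adjusted p = 0.308, 0.125 and 0.231). The counting intervals cover counting error only, and the ratios of Gdf10 and Pou3f3 rest mainly on postSTC7.

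**Figure D2:**
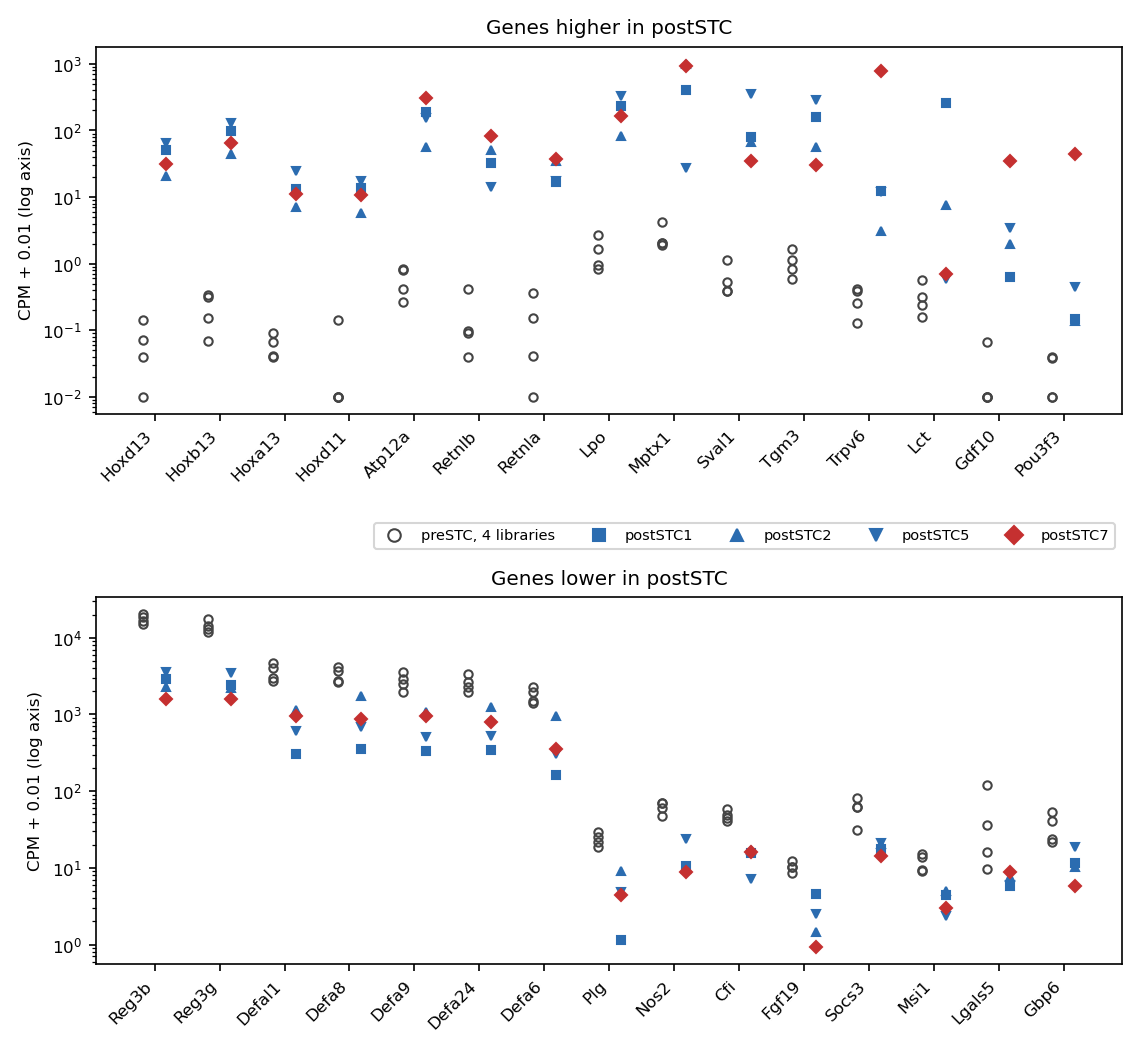
CPM + 0.01 on a log axis for the 15 higher and 15 lower genes named by rule, with open circles for the 4 preSTC libraries and filled symbols for each postSTC library. For each gene the filled symbols lie on one side of the circles, and postSTC7 (red) stands apart for Trpv6, Gdf10 and Pou3f3.

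Several of the genes of largest fall served antibacterial defence. Reg3b, a secreted lectin that binds bacteria, stood at 16730.4, 14929.7, 18762 and 20317 CPM in preSTC and 2934, 2249.7, 3545 and 1611 CPM in postSTC. Its close relative Reg3g stood at 12929.9, 11809, 17584 and 14297 CPM in preSTC and 2436, 2225, 3423 and 1568 CPM in postSTC. Neither gene's groups overlapped, and postSTC7 was lowest for both. Reg3b fell by 2.77 ± 0.25 and Reg3g by 2.55 ± 0.24 on the log2 scale (± SE, with edgeR adjusted p = 0.000294 for both, and 0.0716 and 0.0755 in the 8-library block). Together they made up 2.61 to 3.34% of the counts outside the seminal genes in preSTC and 0.321 to 0.739% in postSTC.

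The Paneth cell defensin genes Defa6, Defa8, Defa9 and Defa24 and the defensin-like gene Defal1 together took 1.05 to 1.70% of those counts in preSTC and 0.144 to 0.635% in postSTC. Defal1 stood at 3007, 2691, 3999.9 and 4647 CPM in preSTC and 309, 1137, 615 and 940.4 CPM in postSTC, and Defa8 at 2731, 2635, 3694 and 4097 CPM in preSTC and 350.3, 1721, 678 and 861 CPM in postSTC. For both, postSTC2 was highest among the postSTC libraries and postSTC1 lowest. The log2 fold changes of the 5 genes ran from -2.26 (Defal1) to -1.80 (Defa24), with edgeR adjusted p from 0.00243 to 0.0103. Of the 5, only Defa6 was called in the 8-library block (edgeR adjusted p = 0.0361). Because reads could be split among near-identical defensin copies, the value of each single gene is uncertain.

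Other genes of large fall served host defence, signalling and growth. Nos2, the inducible nitric oxide synthase, stood at 46.8, 60.4, 70.5 and 70.2 CPM in preSTC and 10.5, 9.50, 24.0 and 8.82 CPM in postSTC (edgeR adjusted p = 0.00248). Cfi, the complement regulator factor I, went from 48.2 ± 8.05 to 14.0 ± 4.68 CPM, and Socs3, an inhibitor of cytokine signals, from 59.0 ± 20.4 to 18.2 ± 2.97 CPM (n = 4, ± SD, with edgeR adjusted p = 0.00243 and 0.00235). Plg, the plasminogen gene, stood at 18.9, 21.6, 25.5 and 29.6 CPM in preSTC and 1.14, 9.11, 4.80 and 4.37 CPM in postSTC, lowest in postSTC1. Fgf19, the hormone that carries the bile acid signal from the ileum to the liver, stood at 12.3, 8.45, 10.3 and 10.3 CPM in preSTC and 4.50, 1.47, 2.51 and 0.910 CPM in postSTC (edgeR adjusted p = 0.0081). Msi1, an RNA-binding protein of epithelial progenitors, went from 11.9 ± 3.08 to 3.68 ± 1.22 CPM (n = 4, ± SD, with edgeR adjusted p = 0.0301). Lgals5, a galectin gene of the rat, spread widely before the operation, with 9.64, 16.04, 119 and 36.3 CPM in preSTC and 5.85, 7.62, 6.01 and 8.92 CPM in postSTC. The highest Lgals5 value, in preSTC7, was more than 10 times the lowest preSTC value, in preSTC1. The interferon-induced GTPase gene Gbp6 went from 34.8 ± 15.1 to 11.5 ± 5.27 CPM (n = 4, ± SD, with edgeR adjusted p = 0.0131), and as 1 of a family of like copies its single value is uncertain. Lgals5, Msi1 and Gbp6 were lost in the 12-library block (edgeR adjusted p = 0.0604, 0.0594 and 0.0523), and Lgals5 also with the random block (limma adjusted p = 0.0661).

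Among the called genes of highest mean CPM, which is not adjusted for gene length, Fth1 was the one that rose. Fth1 encodes the iron-storing heavy chain of ferritin and stood at 1989, 2099, 2027 and 2154 CPM in preSTC and 4419, 3579.6, 3703 and 2869.8 CPM in postSTC (log2 fold change 0.82 ± 0.16, ± SE, with edgeR adjusted p = 0.00576). The brush border peptidase gene Enpep fell from 2667 ± 251 to 1263 ± 320.3 CPM (n = 4, ± SD, with edgeR adjusted p = 0.00978). Its lowest library was postSTC7, and it kept its call without it (edgeR adjusted p = 0.01).

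Among genes for making DNA building blocks, repairing DNA and assembling chromatin, every call was downward. Markers of some other cell types tended lower beside them, and of others higher. The 8 intestinal epithelium markers had log2 fold changes below 0 (median -0.61), with 1 called. So did 19 of 21 genes of B cells, follicles and M cells (median -1.53), with 0 called. The sums of this last list overlapped, at 120.5 to 1307 CPM in preSTC and 99.2 to 386 CPM in postSTC. All 13 adipocyte markers had log2 fold changes above 0. The part of these cell types in the falls was not tested. In bulk samples, fewer cells of a type and less RNA per cell cannot be told apart. Of 23 tested genes of nucleotide synthesis, 10 fell, 13 without postSTC7 and 7 blocked, with a median log2 fold change of -0.44 against 0.02 over all tested genes. Rrm2, the regulated subunit of ribonucleotide reductase that makes deoxyribonucleotides, stood at 88.5, 63.5, 76.6 and 63.7 CPM in preSTC and 34.6, 29.5, 28.4 and 18.4 CPM in postSTC. Every postSTC value lay below every preSTC value, and Rrm2 fell by 1.40 ± 0.18 on the log2 scale (± SE, with edgeR adjusted p = 0.000956). The other subunit gene, Rrm1, went from 144 ± 5.70 to 80.1 ± 9.69 CPM, and the thymidylate synthase gene Tyms from 113 ± 20.7 to 60.4 ± 18.5 CPM (n = 4, ± SD, with edgeR adjusted p = 0.000747 and 0.0212). Shmt1, which supplies one-carbon units for thymidylate, went from 83.0 ± 4.79 to 40.4 ± 9.71 CPM (n = 4, ± SD, with edgeR adjusted p = 0.00272).

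Of 23 tested genes of DNA repair by recombination and mismatch repair, 14 fell, 15 without postSTC7 and 11 blocked (median log2 fold change -0.71). Fancd2, which organises repair of cross-linked DNA, stood at 28.8, 26.6, 27.4 and 26.3 CPM in preSTC and 17.2, 15.2, 13.4 and 9.64 CPM in postSTC. The groups did not overlap, and postSTC7 was lowest (edgeR adjusted p = 0.00257). Brca1, which acts in repair by recombination, had 23.7, 16.9, 21.2 and 21.3 CPM in preSTC and 18.6, 14.1, 11.6 and 7.10 CPM in postSTC. Its groups overlapped, and it was not called (edgeR adjusted p = 0.0654). Of 18 tested genes of chromatin assembly and DNA methylation, 17 fell, 15 without postSTC7 and 15 blocked (median log2 fold change -0.84). Asf1b, which hands histones to new chromatin, stood at 26.8, 25.2, 27.2 and 21.8 CPM in preSTC and 10.4, 10.9, 11.7 and 6.23 CPM in postSTC and fell by 1.36 ± 0.18 on the log2 scale (± SE, with edgeR adjusted p = 0.00132). Dnmt1, which copies methyl marks onto new DNA, went from 103 ± 12.0 to 60.4 ± 5.47 CPM, and Ezh2, which writes a repressive histone mark, from 45.7 ± 5.28 to 23.9 ± 4.52 CPM (n = 4, ± SD, with edgeR adjusted p = 0.00169 and 0.00192). Of 35 tested kinesins, motors of which several move chromosomes, 12 fell and 1, Kif26a, rose. Kif22, a chromosome-arm motor named after its values were seen, went from 67.5 ± 7.38 to 30.3 ± 4.40 CPM (n = 4, ± SD, with edgeR adjusted p = 0.000655).

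The promoters of the tested members of the 3 DNA lists, called or not, were read for known motifs, since most members moved together. RefSeq promoters of assembly GRCr8, a later assembly than the one the counts were made on, were found for 12695 tested genes and 53 of the 64 tested members. In the 250 bases before the start, on both strands, the E2F words TTTGGCGC, TTTCCCGC, TTTGGCGG and TTTCCCGG were found in 9 of the 53 promoters (16.98%), against 4.32% of all 12695 and 3 of 23 promoters (13.04%) of the ribosome biogenesis list described below. The CCAAT box, CCAAT, was in 26 of the 53 (49.1%) against 35.3% of all, and the element TTTGAA of cell cycle genes in 7 (13.2%) against 11.0%. The intestinal CDX word TTTATGA was in 1.69% of all promoters and the HNF4 word CAAAGTCCA in 0.307%. None of these words contains another. A match is a description of letters in this window and no evidence of binding. Below are the 4 members of smallest p with an E2F word, and Reg3b and Reg3g, the most abundant genes that fell, with matched words in capitals, 5′ to 3′ on the gene's strand.
Shmt1, chr10:45990342-45990591 (minus strand): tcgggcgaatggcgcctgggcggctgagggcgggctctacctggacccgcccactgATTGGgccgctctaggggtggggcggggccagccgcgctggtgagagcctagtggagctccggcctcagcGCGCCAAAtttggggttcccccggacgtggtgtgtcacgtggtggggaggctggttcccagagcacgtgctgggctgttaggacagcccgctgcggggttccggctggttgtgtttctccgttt
Chaf1a, chr9:960975-961224 (plus strand): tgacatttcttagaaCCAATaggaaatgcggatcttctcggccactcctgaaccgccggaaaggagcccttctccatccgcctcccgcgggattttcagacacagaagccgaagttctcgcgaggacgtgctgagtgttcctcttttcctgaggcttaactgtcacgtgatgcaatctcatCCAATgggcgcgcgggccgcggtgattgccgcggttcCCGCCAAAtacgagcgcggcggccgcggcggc
Hells, chr1:246113879-246114128 (plus strand): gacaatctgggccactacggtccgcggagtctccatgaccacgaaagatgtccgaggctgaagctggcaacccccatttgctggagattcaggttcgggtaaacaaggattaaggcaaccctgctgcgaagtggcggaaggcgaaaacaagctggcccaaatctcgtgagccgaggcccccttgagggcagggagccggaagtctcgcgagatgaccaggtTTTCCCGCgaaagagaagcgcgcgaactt
Fen1, chr1:216274397-216274646 (minus strand): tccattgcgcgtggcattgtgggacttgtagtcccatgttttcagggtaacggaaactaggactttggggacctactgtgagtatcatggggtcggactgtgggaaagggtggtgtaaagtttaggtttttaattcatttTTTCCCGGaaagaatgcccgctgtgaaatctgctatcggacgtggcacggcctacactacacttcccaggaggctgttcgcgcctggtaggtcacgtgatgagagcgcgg
Reg3b, chr4:112419526-112419775 (plus strand): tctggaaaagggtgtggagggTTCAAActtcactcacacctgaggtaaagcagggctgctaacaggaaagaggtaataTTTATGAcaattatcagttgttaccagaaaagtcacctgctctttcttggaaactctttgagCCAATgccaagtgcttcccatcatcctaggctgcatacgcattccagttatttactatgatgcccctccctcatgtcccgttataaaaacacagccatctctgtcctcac
Reg3g, chr4:112484739-112484988 (minus strand): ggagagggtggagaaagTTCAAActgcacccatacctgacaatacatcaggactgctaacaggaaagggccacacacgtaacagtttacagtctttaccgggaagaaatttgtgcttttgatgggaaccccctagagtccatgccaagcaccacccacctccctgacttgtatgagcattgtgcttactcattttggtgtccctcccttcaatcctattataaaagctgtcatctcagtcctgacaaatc

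The capitals in Shmt1 mark, on the other strand, a CCAAT box and the E2F word TTTGGCGC, which begins 124 bases before the start. In Chaf1a, the large subunit gene of a histone chaperone, they mark CCAAT boxes at 235 and 69 bases and the E2F word TTTGGCGG on the other strand at 32 bases. In Hells, a chromatin remodeller gene, the word TTTCCCGC begins at 29 bases, and in Fen1, the flap endonuclease gene, TTTCCCGG begins at 110 bases. In Reg3b they mark TTTGAA on the other strand at 229 bases, TTTATGA at 172 bases and CCAAT at 110 bases, and in Reg3g only TTTGAA on the other strand at 233 bases. Chaf1a went from 35.4 ± 3.11 to 17.6 ± 3.85 CPM and Hells from 32.4 ± 1.64 to 18.9 ± 3.62 CPM (n = 4, ± SD, with edgeR adjusted p = 0.00342 and 0.0066), while Fen1 fell by 0.75 ± 0.16 on the log2 scale (SE, n = 4, edgeR adjusted p = 0.00913).

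Genes for building ribosomes were lower as well. Of 26 tested ribosome biogenesis genes, 17 fell, 17 without postSTC7 and 14 blocked, and all 26 had a log2 fold change below 0 (median -0.47). Nop58, a core protein of the particles that methylate ribosomal RNA, stood at 87.2, 84.3, 88.3 and 83.4 CPM in preSTC and 56.1, 53.7, 56.8 and 63.2 CPM in postSTC. The fall was small and even, 0.58 ± 0.08 on the log2 scale (± SE, with edgeR adjusted p = 0.00123), and postSTC7 was the highest of the postSTC libraries. The nucleolar genes Ncl and Npm1 went from 571 ± 35.4 to 408 ± 37.2 CPM and from 477 ± 30.2 to 334 ± 42.3 CPM (n = 4, ± SD, with edgeR adjusted p = 0.00872 and 0.0103). Of 84 tested cytosolic ribosomal protein genes 1, Rps12l2, rose, with a median log2 fold change of -0.03. Of 38 tested proteasome subunits, 22 fell, 23 without postSTC7 and 16 blocked (median log2 fold change -0.32). Psma2, a subunit of the core ring named after its values were seen, went from 236 ± 13.6 to 153 ± 17.7 CPM (n = 4, ± SD, with edgeR adjusted p = 0.00235).

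The tRNA synthetase and amino acid stress lists depended on postSTC7. Of 20 tested cytosolic tRNA synthetases, 3 fell with all libraries and 13 without postSTC7, and their median log2 fold change moved from -0.21 to -0.42. Vars1, which charges valine, stood at 94.6, 75.6, 95.3 and 72.4 CPM in preSTC and 47.4, 41.9, 39.1 and 55.6 CPM in postSTC (edgeR adjusted p = 0.00198). Asns, the asparagine synthetase gene of the amino acid stress response, stood at 48.4, 34.8, 53.9 and 36.5 CPM in preSTC and 23.6, 25.5, 28.5 and 196 CPM in postSTC. The postSTC7 value was the highest of the 8, and the other 3 postSTC values were the lowest. With all libraries the log2 fold change of Asns was 0.65 (edgeR adjusted p = 0.474), and without postSTC7 it was -0.75 (edgeR adjusted p = 0.0112). Atf4, the factor that drives this response, had 332, 246, 276 and 257 CPM in preSTC and 304, 271, 277 and 612 CPM in postSTC and was not called (edgeR adjusted p = 0.283). Of 16 tested genes of the list, Vldlr and Ddit3 rose. Without postSTC7, 2 were higher and 4 lower, and the median log2 fold change turned from 0.26 to -0.19. Ddit3, a stress factor gene, stood at 7.74, 9.05, 8.39 and 8.52 CPM in preSTC and 16.5, 15.3, 17.2 and 10.1 CPM in postSTC (edgeR adjusted p = 0.00892, and 0.00108 without postSTC7).

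Of 17 tested p53 targets 3 rose, also 3 blocked, with a median log2 fold change of 0.13, and without postSTC1 2 fell. Phlda3, an inhibitor of Akt signals, stood at 14.5, 12.9, 17.01 and 12.2 CPM in preSTC and 28.1, 28.1, 56.6 and 50.4 CPM in postSTC, and the groups did not overlap (edgeR adjusted p = 0.00218). Ccng1 went from 64.1 ± 7.23 to 119 ± 48.5 CPM, and Eda2r, a receptor gene, from 0.558 ± 0.269 to 1.90 ± 0.423 CPM (n = 4, ± SD, with edgeR adjusted p = 0.0151 and 0.0156). Cdkn1a, the cell cycle inhibitor p21 and the best known target, had 176, 123, 148 and 134 CPM in preSTC and 132, 117, 96.1 and 70.6 CPM in postSTC and was not called (edgeR adjusted p = 0.0749). A count of 3 of 17 compares with 10.6% of all tested genes called higher.

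**Figure D3:**
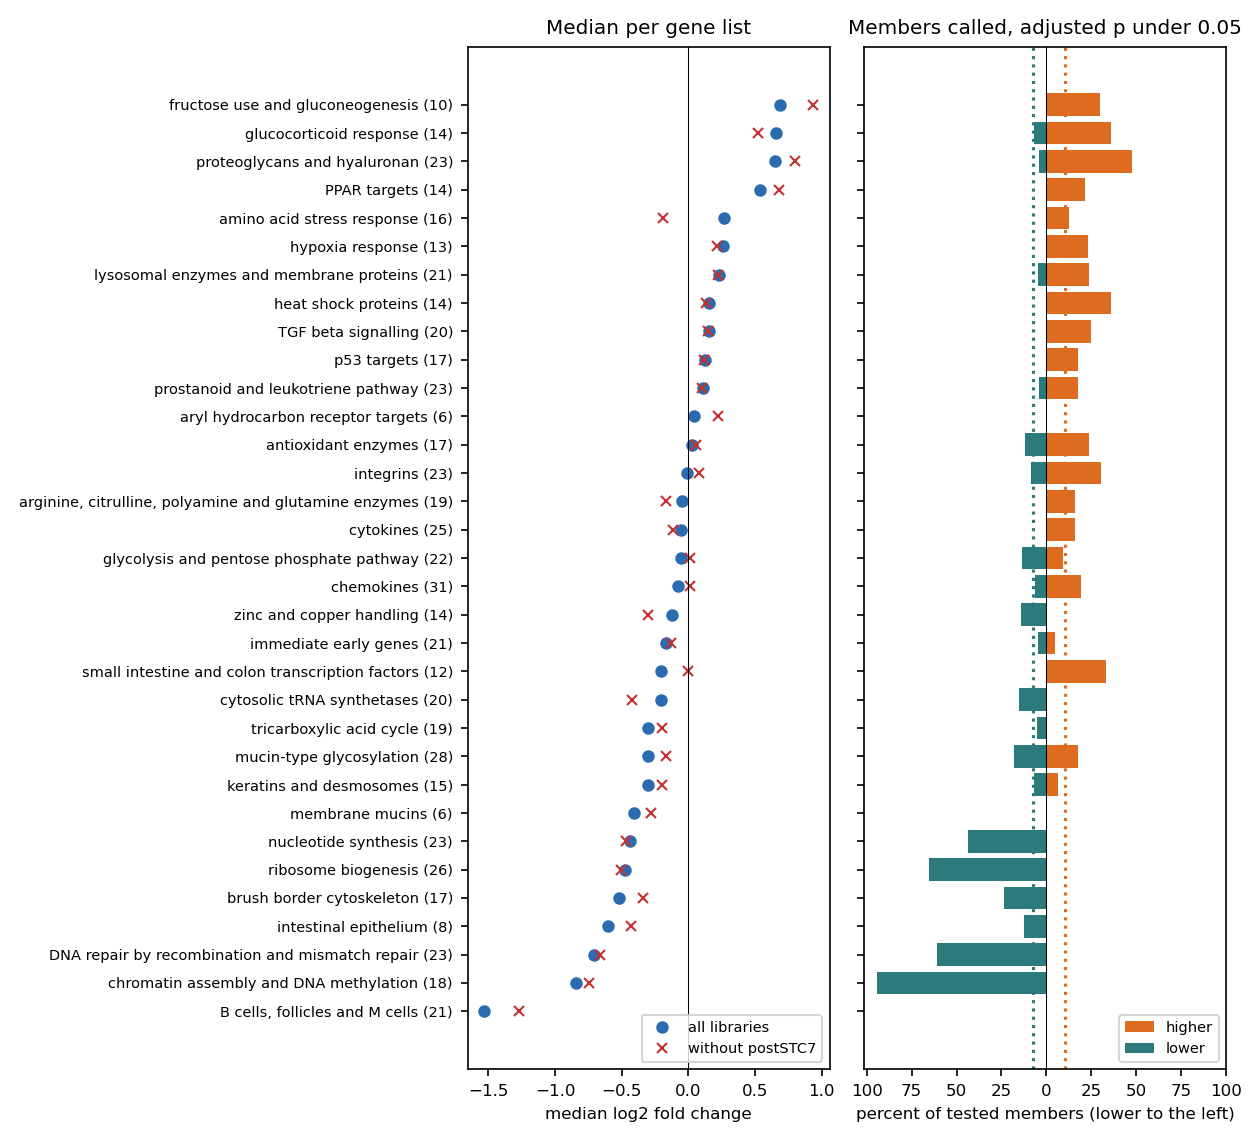
Median log2 fold change of each gene list with all libraries (circles) and without postSTC7 (crosses), and the percent of tested members called higher (orange) or lower (teal), with the number of tested members in brackets. Dotted lines give the percent called among all tested genes, 10.6% higher and 7.28% lower, and the bars of chromatin assembly, ribosome biogenesis and DNA repair reach farthest to the left.

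Of 22 tested genes of glycolysis and the pentose phosphate pathway, Slc2a1 and Hk1 rose and Hk2, Tkt and Taldo1 fell (median log2 fold change -0.06). Among all tested genes 10.6% were higher and 7.28% lower. Hk1 and Hk2 encode hexokinases, which trap glucose in the cell, and they moved in opposite directions. Hk1 stood at 45.7, 50.04, 55.0 and 43.6 CPM in preSTC and 86.8, 84.1, 115 and 124 CPM in postSTC, and Hk2 at 238, 186, 215 and 203 CPM in preSTC and 74.9, 85.7, 96.0 and 89.5 CPM in postSTC. Neither gene's groups overlapped (edgeR adjusted p = 0.00706 for Hk1 and 0.0105 for Hk2). The glucose carrier gene Slc2a1 went from 29.1 ± 1.44 to 55.0 ± 11.4 CPM (n = 4, ± SD, with edgeR adjusted p = 0.0024). Tkt and Taldo1, of the pentose phosphate pathway, lost their call without postSTC7 (edgeR adjusted p = 0.0599 and 0.0876) and in the 12-library block (edgeR adjusted p = 0.0857 and 0.128). Of 19 tested genes of the tricarboxylic acid cycle, 18 had a log2 fold change below 0 and 1, Idh3g, fell (median -0.30). Without postSTC1, 12 of the 19 fell.

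Of 10 tested genes of fructose use and gluconeogenesis 3 rose, and 1 blocked (median log2 fold change 0.68). Pck1, which opens the path from lactate and amino acids back to glucose, stood at 38.5, 9.32, 16.7 and 9.28 CPM in preSTC and 148, 164, 305 and 20.4 CPM in postSTC. It was high in postSTC1, postSTC2 and postSTC5, while postSTC7 lay within the preSTC range (edgeR adjusted p = 0.015). G6pc1, the glucose-6-phosphatase that releases free glucose, stood at 0.497, 1.22, 0.0287 and 0.589 CPM in preSTC and 16.4, 8.63, 4.38 and 2.18 CPM in postSTC, and Slc2a2, the glucose carrier GLUT2, at 0.280, 0.351, 0.718 and 0.0295 CPM in preSTC and 88.5, 37.0, 0.965 and 1.68 CPM in postSTC. Both were highest in postSTC1, and Slc2a2 was within 2 CPM in postSTC5 and postSTC7 (edgeR adjusted p = 0.0184 and 0.0227). In the 12-library block Pck1 and Slc2a2 were not called (edgeR adjusted p = 0.0785 and 0.26), and Slc2a2 was not with the random block (limma adjusted p = 0.217). Khk, the fructose kinase gene, had 52.4, 28.6, 27.2 and 35.9 CPM in preSTC and 90.9, 63.2, 25.6 and 20.4 CPM in postSTC and was not called (edgeR adjusted p = 0.454).

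Among 14 tested PPAR targets, genes of fatty acid use, 3 rose, among them Angptl4 and Cidec, and 1 of the list was called blocked. Angptl4, a secreted inhibitor of lipoprotein lipase, stood at 8.70, 1.94, 4.91 and 1.56 CPM in preSTC and 27.9, 34.0, 31.6 and 8.28 CPM in postSTC, and Cidec, a lipid droplet protein also found in fat cells, at 27.0, 14.7, 27.6 and 10.3 CPM in preSTC and 78.7, 89.1, 157 and 8.05 CPM in postSTC. In Angptl4 and Pck1 the postSTC7 value lay within the preSTC range, and in Cidec below it. Angptl4 and Cidec had edgeR adjusted p of 0.0212 and 0.0432. Markers of adipocytes moved with these genes. The 13 adipocyte markers had a summed level, in CPM, of 758, 152, 633 and 223 in preSTC and 1353, 1574, 3987 and 178 in postSTC, all 13 had a log2 fold change above 0 (median 1.87), and none was at 0 in all libraries. Of them, 2 rose with all libraries (Plin4 and Lep) and 9 without postSTC7. Lep, the fat hormone leptin, stood at 6.16, 1.35, 6.35 and 1.59 CPM in preSTC and 71.3, 74.4, 194 and 0.318 CPM in postSTC, and Adipoq, adiponectin, at 132, 9.59, 88.9 and 19.8 CPM in preSTC and 188, 207, 514 and 2.50 CPM in postSTC (edgeR adjusted p = 0.0239 and 0.24). In the 12-library block Angptl4, Cidec, Plin4 and Lep were not called (edgeR adjusted p = 0.0565, 0.225, 0.0676 and 0.154), nor were Cidec and Lep with the random block (limma adjusted p = 0.143 and 0.301). The part of adipocyte content in the rise of the genes above was not tested.

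Of 19 tested genes of arginine, citrulline, polyamine and glutamine enzymes, Arg1, Glul and Ass1 rose, against 10.6% of all tested genes. Glul, glutamine synthetase, stood at 317, 273, 290.3 and 268 CPM in preSTC and 370.2, 360.4, 557 and 934 CPM in postSTC (edgeR adjusted p = 0.0281). Arg1, the arginase that yields ornithine, stood at 0.902, 2.08, 1.55 and 1.33 CPM in preSTC and 6.20, 2.50, 6.07 and 83.2 CPM in postSTC, with its largest value in postSTC7, and its log2 fold change of 4.05 became 1.74 without that library (edgeR adjusted p = 0.0127). Cps1, the entry enzyme of citrulline making, had 761, 488, 659 and 741 CPM in preSTC and 541, 411, 117 and 239.7 CPM in postSTC and was not called (edgeR adjusted p = 0.0816). Among 17 tested antioxidant enzymes 4 rose and 2 fell, with 2 higher and 1 lower blocked and 2 higher without postSTC1. The shares of all tested genes were 10.6% higher and 7.28% lower. Gpx2, the glutathione peroxidase of the gut epithelium, stood at 844, 801, 1158 and 974 CPM in preSTC and 582, 399.9, 395 and 387 CPM in postSTC and fell by 1.10 ± 0.23 on the log2 scale (± SE, with edgeR adjusted p = 0.00831). Gpx4, which protects membrane lipids, rose from 122 ± 5.56 to 181 ± 11.6 CPM, and catalase, Cat, from 98.6 ± 12.6 to 153 ± 14.2 CPM (n = 4, ± SD, with edgeR adjusted p = 0.00272 and 0.00334). In these 3 genes the groups did not overlap. Of 14 tested genes of zinc and copper handling, the copper importer Slc31a1 and the zinc exporter Slc30a1 fell (edgeR adjusted p = 0.0115 and 0.0161), and without postSTC1 5 of the list fell. Glul and Slc31a1 missed the threshold in the 12-library block (edgeR adjusted p = 0.0506 and 0.055), and Arg1 with the random block (limma adjusted p = 0.108).

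Of 14 tested glucocorticoid response genes 5 rose and 1, the NF-kappaB inhibitor Nfkbia, fell, with 3 higher blocked and a median log2 fold change of 0.66. Hsd11b2, which inactivates glucocorticoids in cells that answer to aldosterone, stood at 34.2, 18.9, 37.6 and 29.5 CPM in preSTC and 84.4, 83.7, 111 and 47.5 CPM in postSTC. All postSTC values lay above the preSTC values (edgeR adjusted p = 0.00348). Tsc22d3, also called GILZ, went from 25.7 ± 4.33 to 54.3 ± 8.93 CPM (n = 4, ± SD, with edgeR adjusted p = 0.00674). Fkbp5, a common readout of the receptor, had 34.7, 44.6, 45.2 and 26.6 CPM in preSTC and 24.9, 34.1, 28.3 and 77.4 CPM in postSTC and was not called (edgeR adjusted p = 0.842). Of 14 tested heat shock proteins 5 rose, 4 blocked, and without postSTC1 2 fell. Hspb1, a small heat shock protein, stood at 23.8, 22.4, 30.2 and 27.0 CPM in preSTC and 69.9, 66.5, 74.5 and 93.2 CPM in postSTC, a log2 fold change of 1.56 ± 0.19 (± SE, with edgeR adjusted p = 0.00073, and 0.0327 in the 8-library block). Cryab, another small heat shock protein abundant in muscle, went from 12.5 ± 1.74 to 28.2 ± 5.49 CPM (n = 4, ± SD, with edgeR adjusted p = 0.00764).

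Of 13 tested hypoxia response genes, P4ha1, Bnip3 and Mxi1 rose, with 2 of the list blocked (edgeR adjusted p = 0.0733 for Mxi1 there). The shares of all tested genes called higher were 10.6%, and 6.38% blocked. P4ha1, which hydroxylates collagen, stood at 16.1, 17.6, 20.9 and 18.7 CPM in preSTC and 32.0, 41.7, 43.2 and 29.2 CPM in postSTC (edgeR adjusted p = 0.00256). Vegfa, the vessel growth factor, had 82.5, 65.3, 72.3 and 75.9 CPM in preSTC and 88.6, 49.8, 53.2 and 102 CPM in postSTC and was not called (edgeR adjusted p = 0.977). Of 21 tested immediate early genes, Nr4a2 rose and Zfp36 fell. Nr4a2, an orphan nuclear receptor gene, stood at 8.86, 7.13, 7.76 and 7.90 CPM in preSTC and 30.8, 17.4, 29.6 and 20.4 CPM in postSTC (edgeR adjusted p = 0.00235), and Zfp36, which destabilises inflammatory mRNAs, at 298, 268, 191 and 211 CPM in preSTC and 178, 101, 110.0 and 87.9 CPM in postSTC (edgeR adjusted p = 0.0203). Of 6 tested aryl hydrocarbon receptor targets, edgeR called 0, with 2 at an unadjusted p under 0.05, and DESeq2 and limma voom each called 1 higher. Cyp1a1, the target most used as a readout, had 25.5, 6.05, 26.6 and 24.2 CPM in preSTC and 69.7, 10.8, 15.1 and 6.10 CPM in postSTC (edgeR adjusted p = 0.805).

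In the enterocyte, the actin scaffold of the brush border was lower in part. All 17 tested genes of this scaffold had a log2 fold change below 0 (median -0.52), and Cobl, Ezr, Pls1 and Vil1 fell, with 1 of the list blocked and 10 without postSTC1. Vil1, villin, which bundles actin in microvilli, stood at 2651, 1946, 2349 and 2106 CPM in preSTC and 1757, 1212, 999 and 683 CPM in postSTC. The groups did not overlap (edgeR adjusted p = 0.0398, or 0.06 without postSTC7). Ezr, which ties the actin core to the membrane, went from 949 ± 132 to 630.1 ± 94.6 CPM, and Pls1, another bundling protein, from 1696 ± 212 to 861 ± 345 CPM (n = 4, ± SD, with edgeR adjusted p = 0.0246 and 0.0379). The 12-library block did not call Vil1, Ezr or Pls1 (edgeR adjusted p = 0.0837, 0.053 and 0.0717). Myo1a, the motor along the microvillus core, had 1105, 884, 929 and 953 CPM in preSTC and 1009, 790.2, 533 and 363 CPM in postSTC and was not called (edgeR adjusted p = 0.215). The summed level of the 17 genes, in CPM, was 13816, 11445, 12675 and 11714 in preSTC and 11556, 9098, 6758 and 4795 in postSTC. The sum in postSTC1 lay within the preSTC range, and that in postSTC7 was lowest. The 8 markers of intestinal epithelium had a median log2 fold change of -0.61, with Vil1 as the called member and 6 called without postSTC1, and the part of epithelial content in the fall of brush border genes was not tested. Epcam, a surface protein of all intestinal epithelial cells, had 2363, 1822, 2213 and 2242 CPM in preSTC and 2527, 1939, 1513 and 1083 CPM in postSTC (edgeR adjusted p = 0.397).

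Enzymes that build the sugar chains of mucins shifted in both directions. Of 28 tested genes 5 rose and 5 fell, with 4 higher and 2 lower blocked. The risers were the sialic acid transferase genes St6galnac6, St6galnac1 and St6galnac2, and B3gnt3 and Chst5. St6galnac6 stood at 20.6, 11.1, 23.0 and 14.4 CPM in preSTC and 276, 126, 345 and 108 CPM in postSTC, a log2 fold change of 3.63 ± 0.41 (± SE, with edgeR adjusted p = 0.000655). St6galnac1 stood at 12.6, 11.8, 12.7 and 26.4 CPM in preSTC and 102, 75.4, 162 and 35.6 CPM in postSTC (edgeR adjusted p = 0.00304). For both genes postSTC5 was highest and postSTC7 lowest among the postSTC libraries. B3gnt3, which extends core chains, stood at 3.23, 2.81, 3.65 and 3.83 CPM in preSTC and 32.7, 16.3, 31.3 and 10.5 CPM in postSTC (edgeR adjusted p = 0.000873). Among the genes that fell, St3gal4, which adds sialic acid to galactose, stood at 381, 319, 377 and 274 CPM in preSTC and 182, 94.1, 136 and 87.0 CPM in postSTC, and Fut2, which adds the fucose of secreted blood group antigens, at 295, 196, 316 and 243 CPM in preSTC and 179, 133, 154 and 131 CPM in postSTC (edgeR adjusted p = 0.0109 and 0.0125). Of 6 tested membrane mucins, edgeR called 0, with 2 at an unadjusted p under 0.05, and DESeq2 and limma voom each called 2 lower. Muc13, an abundant membrane mucin of the bowel, had 2744, 2613, 2708 and 2733 CPM in preSTC and 2988, 1480.4, 1586 and 935 CPM in postSTC (edgeR adjusted p = 0.185).

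Of 15 tested keratins and desmosome genes, Krt23 rose and Pkp2 fell, and without postSTC1 5 fell. Krt23 stood at 2.33, 5.64, 6.38 and 3.54 CPM in preSTC and 16.2, 17.8, 6.45 and 24.7 CPM in postSTC (edgeR adjusted p = 0.0141). Neither Krt23 nor Pkp2 was called in the 12-library block (edgeR adjusted p = 0.0875 and 0.0515). Krt20, the keratin of mature enterocytes, had 2994, 2488, 3386 and 2706 CPM in preSTC and 2169, 1651, 1458 and 783 CPM in postSTC and was not called (edgeR adjusted p = 0.0696). Of 21 tested lysosomal genes 5 rose and 1 fell, against 10.6% higher and 7.28% lower of all tested genes. Without postSTC7 8 rose, against 11%. Ctsl, a cathepsin protease, stood at 70.8, 71.3, 84.5 and 79.2 CPM in preSTC and 105, 170.4, 239.9 and 169 CPM in postSTC (edgeR adjusted p = 0.0045). Ctsd, another cathepsin, stood at 136, 146, 153 and 119 CPM in preSTC and 198, 246, 309 and 575 CPM in postSTC, highest in postSTC7 (edgeR adjusted p = 0.00897). Ctsz, the member that fell, went from 256 ± 31.5 to 119.6 ± 34.5 CPM (n = 4, ± SD, with edgeR adjusted p = 0.00477).

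Among cytokines and chemokines, more of the called genes rose than fell, while the median log2 fold change was -0.05 and -0.08. Of 25 tested cytokines Il33, Il17d, Csf1 and Il1rn rose, against 10.6% of all genes. In the blocked count 3 were higher and 1 lower, against 6.38% and 4.83% of all genes. Il33, an alarm cytokine held in the nuclei of stromal and epithelial cells, stood at 51.9, 82.8, 76.0 and 74.2 CPM in preSTC and 160.1, 229, 316 and 171 CPM in postSTC. The groups did not overlap, and Il33 rose by 1.62 ± 0.27 on the log2 scale (± SE, with edgeR adjusted p = 0.00298). Csf1, the macrophage growth factor, stood at 24.9, 27.8, 28.0 and 28.4 CPM in preSTC and 30.6, 60.2, 68.7 and 52.8 CPM in postSTC (edgeR adjusted p = 0.0119). Of 31 tested chemokines 6 rose and 2 fell, against 10.6% higher and 7.28% lower of all tested genes. Blocked, 2 were higher, near the 6.38% of all tested genes. Ccl25, which draws T cells to the small intestine, stood at 482, 433, 455 and 543 CPM in preSTC and 356, 329.9, 180.0 and 110.0 CPM in postSTC, lowest in postSTC7 (edgeR adjusted p = 0.0443). Ccl11, eotaxin, went from 27.8 ± 5.03 to 47.2 ± 12.2 CPM, and Cxcl12, a stromal chemokine, from 127 ± 3.49 to 237 ± 87.0 CPM (n = 4, ± SD, with edgeR adjusted p = 0.0181 and 0.0228). Ccl22 fell with all libraries (edgeR adjusted p = 0.0437) but not without postSTC7 (edgeR adjusted p = 0.0787). Ccl25, Cxcl12 and Ccl22 were lost in the 12-library block (edgeR adjusted p = 0.0543, 0.0599 and 0.114).

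Of 21 tested genes of B cells, follicles and M cells, edgeR called 0 and limma voom 0, DESeq2 called 4 lower, and 4 were lower at an unadjusted p under 0.05 in edgeR. Their median log2 fold change was -1.53. The summed level of the list, in CPM, was 120.5, 1307, 525 and 373 in preSTC and 167, 386, 288 and 99.2 in postSTC, highest in preSTC5. Of 35 tested MHC genes of the rat RT1 complex edgeR, DESeq2 and limma voom each called 0, and 1 was lower at an unadjusted p under 0.05 in edgeR. These genes have near-identical copies and are uncertain as single genes. Of 23 tested prostanoid and leukotriene genes 4 rose and 1 fell, with 1 higher and 2 lower blocked. Among all tested genes 10.6% were higher and 7.28% lower, and blocked 6.38% and 4.83%. Ptger3, a receptor for prostaglandin E, stood at 5.81, 5.24, 6.58 and 5.63 CPM in preSTC and 12.8, 16.1, 26.1 and 11.0 CPM in postSTC (edgeR adjusted p = 0.00333), and Lta4h, which makes leukotriene B, fell from 349 ± 26.6 to 235 ± 30.8 CPM (n = 4, ± SD, with edgeR adjusted p = 0.00871). Ptgs2, the inducible cyclooxygenase, had 5.81, 4.62, 4.66 and 4.30 CPM in preSTC and 4.91, 4.76, 4.66 and 6.14 CPM in postSTC and was not called (edgeR adjusted p = 0.911).

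Of 23 tested genes of proteoglycans and hyaluronan 11 rose, 12 without postSTC7 and 6 blocked, with a median log2 fold change of 0.65. Dcn, decorin, which binds collagen fibrils, stood at 258, 250.4, 287 and 334 CPM in preSTC and 341, 782, 1054 and 491 CPM in postSTC. Bgn, biglycan, stood at 96.8, 101, 119 and 95.1 CPM in preSTC and 164, 247, 279 and 178 CPM in postSTC. In both genes postSTC5 was highest and postSTC1 lowest among the postSTC libraries, and the groups did not overlap (edgeR adjusted p = 0.0142 and 0.00254). Prelp, a linker of the basement membrane, went from 84.7 ± 15.9 to 177 ± 23.3 CPM (n = 4, ± SD, with edgeR adjusted p = 0.00411). Omd, osteomodulin, stood at 0.218, 0.432, 0.489 and 0.147 CPM in preSTC and 0.623, 1.75, 4.88 and 7.64 CPM in postSTC, highest in postSTC7 (edgeR adjusted p = 0.00695). Cd44, the hyaluronan receptor, fell with all libraries (edgeR adjusted p = 0.0436) but not without postSTC7 (edgeR adjusted p = 0.0846). The 12-library block called neither Dcn nor Cd44 (edgeR adjusted p = 0.0648 and 0.0767). Of 41 tested collagen chains, a family read after values were seen, 7 rose and 1 fell (median log2 fold change 0.31), with 6 higher and 1 lower blocked. Among all tested genes 10.6% were higher and 7.28% lower, and blocked 6.38% and 4.83%.

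Of 20 tested genes of TGF beta signalling 5 rose, 8 without postSTC7 and 3 blocked, against 10.6%, 11% and 6.38% of all tested genes. Among the ligands, Tgfb3 stood at 8.27, 11.4, 13.8 and 10.2 CPM in preSTC and 20.5, 37.2, 36.0 and 92.4 CPM in postSTC, and its log2 fold change of 2.09 became 1.52 without postSTC7 (edgeR adjusted p = 0.0013). Tgfb1, the ligand most studied in fibrosis, had 52.1, 53.4, 49.3 and 47.8 CPM in preSTC and 34.0, 50.9, 55.6 and 44.3 CPM in postSTC and was not called (edgeR adjusted p = 0.547). Ltbp3, which stores the latent ligand in the matrix, stood at 21.1, 19.4, 27.5 and 21.3 CPM in preSTC and 42.4, 54.3, 54.6 and 54.8 CPM in postSTC (edgeR adjusted p = 0.000574). The co-receptor Tgfbr3 went from 29.6 ± 2.81 to 54.1 ± 12.3 CPM (n = 4, ± SD, with edgeR adjusted p = 0.0056). Of 23 tested integrins 7 rose and 2 fell, with 2 higher and 1 lower blocked. Among all tested genes 10.6% were higher and 7.28% lower, and blocked 6.38% and 4.83%. Itgb5, a receptor chain for vitronectin, stood at 52.9, 62.8, 58.3 and 60.0 CPM in preSTC and 104, 118, 109 and 131 CPM in postSTC (edgeR adjusted p = 0.000954). The collagen receptor chain Itga2 fell from 103 ± 8.46 to 52.3 ± 11.5 CPM, and Itgb7, a chain of the receptor by which lymphocytes home to the gut, from 60.5 ± 8.58 to 34.4 ± 11.0 CPM (n = 4, ± SD, with edgeR adjusted p = 0.0129 and 0.0447). Itgb7 was not called without postSTC7 (edgeR adjusted p = 0.0882) or in the 12-library block (edgeR adjusted p = 0.0694).

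**Figure D4:**
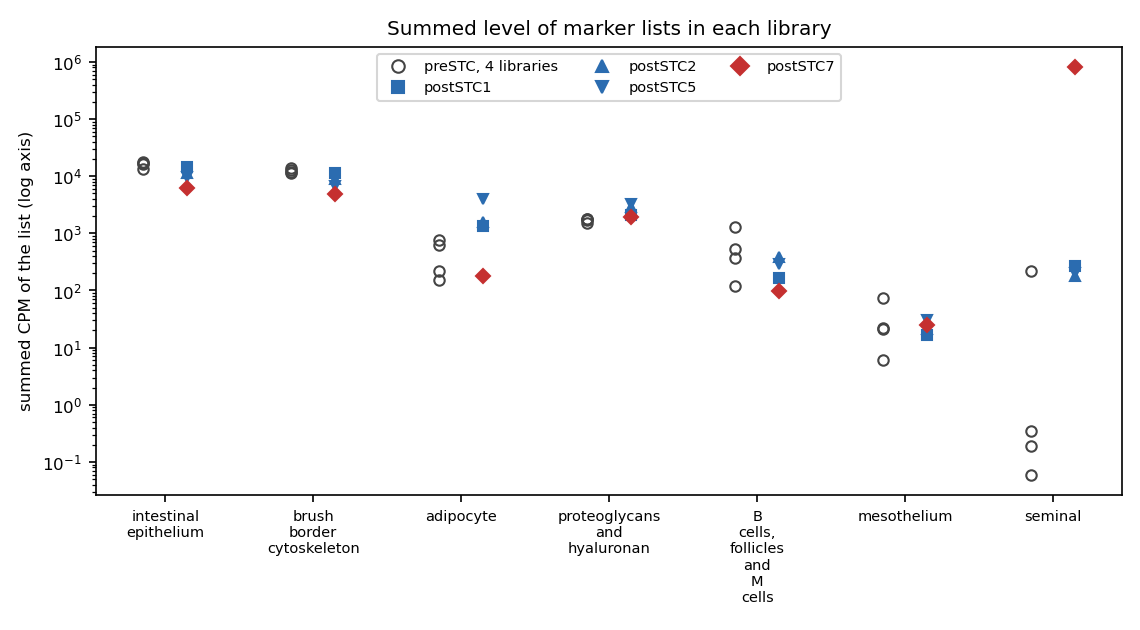
Summed CPM of 7 gene lists in each library on a log axis, with open circles for preSTC and filled symbols for postSTC libraries. The adipocyte sum is higher in 3 postSTC libraries than in any preSTC library, at 178 CPM in postSTC7 (red) within the preSTC range, and the seminal sum in postSTC7 is far above that of any other library.

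Markers of other tissues were read in the same way. Of 8 tested mesothelium markers, Wt1 and Rspo1 rose, while the defining marker Msln had 0.777, 6.53, 27.7 and 6.78 CPM in preSTC and 4.78, 2.63, 5.57 and 2.59 CPM in postSTC (edgeR adjusted p = 0.236), and the summed level was 6.19 to 72.5 CPM in preSTC and 16.9 to 30.6 CPM in postSTC. Wt1 stood at 0.0622, 0.108, 0.776 and 0.324 CPM in preSTC and 2.01, 2.70, 3.97 and 7.37 CPM in postSTC (edgeR adjusted p = 0.00633). Pancreatic acinar markers summed to 17.5 to 21.7 and 10.9 to 23.1 CPM, with Prss1, Amy2a3 and Clps at 0 in all 8 libraries. Stomach markers summed to 0.864 to 1.55 and 0.277 to 0.824 CPM, with Atp4b at 0, and liver markers to 9.33 to 30.4 and 5.82 to 14.2 CPM. Squamous epithelium markers summed to at most 5.35 CPM in preSTC and to 80.6 CPM in postSTC7.

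Of 308 tested solute carriers, the largest family read, 36 rose and 22 fell, with 18 higher and 17 lower blocked, shares near the 10.6% and 7.28% of all tested genes. Slc17a9, which loads ATP into vesicles, stood at 6.68, 6.94, 6.90 and 6.34 CPM in preSTC and 34.3, 25.8, 58.1 and 50.8 CPM in postSTC, and Slc6a19, the main carrier of neutral amino acids in enterocytes, at 806, 719.8, 810.0 and 638 CPM in preSTC and 296, 289, 286 and 224 CPM in postSTC (edgeR adjusted p = 0.000268 and 0.00169). Of 44 tested cytochromes P450 6 rose, and 11 without postSTC7, and of 36 conjugating enzymes 5 rose, and 8 without postSTC7. Among all tested genes 10.6% were higher, and 11% without postSTC7. The glutathione transferase gene Gsta1 stood at 8.46, 7.99, 15.98 and 9.34 CPM in preSTC and 24.5, 51.6, 61.1 and 119 CPM in postSTC (edgeR adjusted p = 0.00226), highest in postSTC7, and has near copies that make its single value uncertain. Of 73 tested potassium channel subunits 10 rose and 2 fell, against 10.6% higher and 7.28% lower of all tested genes. Kcnmb1, the smooth muscle subunit of a calcium-activated channel, went from 35.6 ± 8.15 to 73.6 ± 7.92 CPM (n = 4, ± SD, with edgeR adjusted p = 0.00613). Of 266 tested zinc finger proteins 31 rose and 3 fell, with 14 higher blocked, a share of higher genes near the 10.6% of all tested genes. Of 48 tested subunits of respiratory complex I edgeR called 0, DESeq2 1 higher and 2 lower, and limma voom 6 lower, with 7 at an unadjusted p under 0.05 in edgeR. The family members named here and their families were chosen after their values were seen.

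The genes of largest change that were called with all libraries and not without postSTC7 were high in that library alone. Fcgbpl1, named for its likeness to a mucus protein that binds antibodies, stood at 1.43, 2.21, 10.3 and 2.95 CPM in preSTC and 10.3, 5.36, 7.69 and 32909.5 CPM in postSTC. Its log2 fold change was 10.93 (edgeR adjusted p = 0.0249) and 0.88 without postSTC7 (edgeR adjusted p = 0.321). Cd52, a small surface glycoprotein of lymphocytes and of the male reproductive tract, stood at 3.20, 2.54, 2.93 and 2.00 CPM in preSTC and 3.95, 4.40, 3.25 and 3284 CPM in postSTC, and Qsox1, a secreted sulfhydryl oxidase, at 17.7, 13.7, 20.5 and 15.5 CPM in preSTC and 16.7, 21.7, 16.6 and 6763 CPM in postSTC. Without postSTC7 neither was called (edgeR adjusted p = 0.233 and 0.712). Gsdma, of the pore-forming gasdermins, stood at 1.40, 0.918, 1.29 and 1.00 CPM in preSTC and 1.11, 0.644, 0.744 and 503 CPM in postSTC, and Atp13a4, a cation pump gene, at 0, 0, 0.0287 and 0.0295 CPM in preSTC and 0, 0.0257, 0.386 and 48.0 CPM in postSTC. The Gsdma log2 fold change went from 6.77 to -0.47 without postSTC7 (edgeR adjusted p = 0.537). Atp13a4 had 2 counts in all preSTC libraries together, and the ratio of CPM was 586 (95% counting interval 162 to 4847). None of these 5 genes was called in the 12-library block or with the random block. Of the 12 tested seminal genes 3 were called with all libraries, Dnase2b, Serpina5 and Svs4. None of them was called without postSTC7, while the 12-library block called all 12 and the 8-library block 11.

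**Figure D5:**
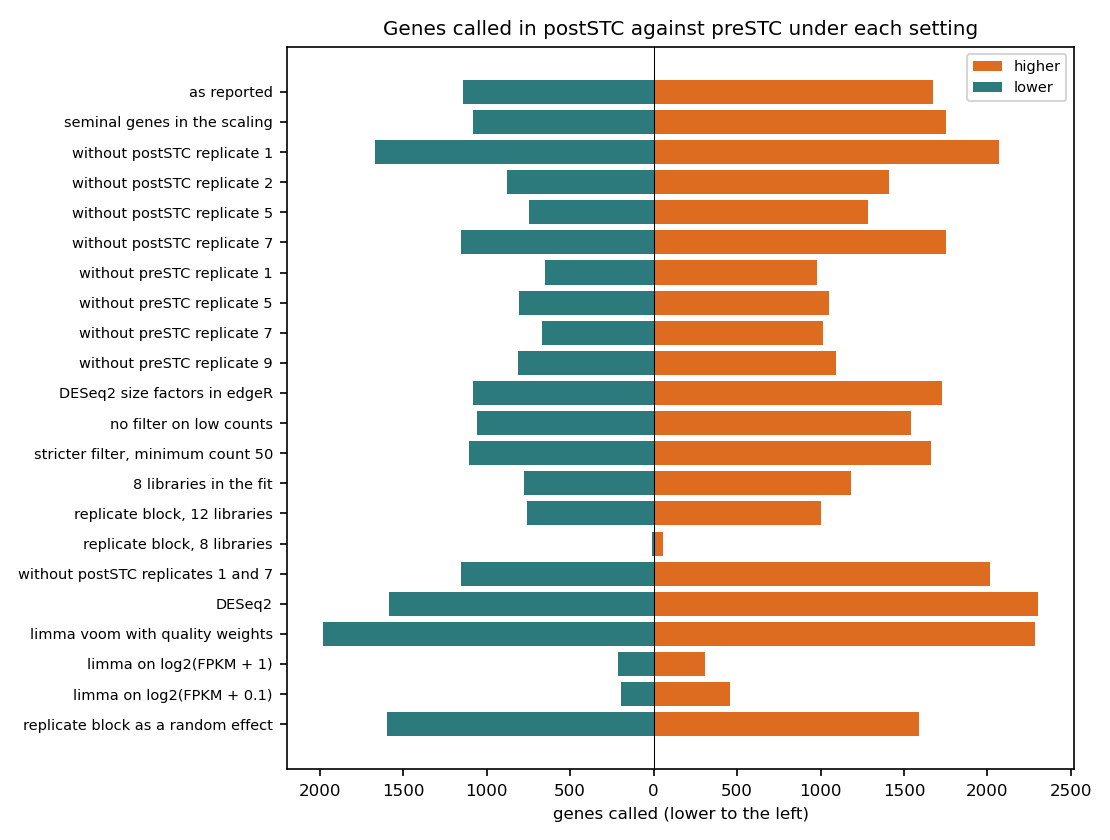
Number of genes called higher (orange) and lower (teal) in postSTC against preSTC under each processing setting, at an adjusted p under 0.05. The 8-library replicate block and the 2 settings on FPKM call the fewest genes, and leaving out postSTC1 calls 3740, the most of any single library left out.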

How the data were processed

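Whole-number counts per gene and FPKM (counts scaled by gene length and depth) of 12 libraries were deposited by the authors, each in a table of its own. The authors' counts came from fastp, HISAT2 and HTSeq on mRatBN7.2, per the submitters' processing notes, and their strand setting is not given in the sources used here, so a gene and its antisense partner cannot be told apart. The authors' FPKM were proportional to count over column total. The design text of the series names another species' genome and was not used.

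Samples were grouped by title. Genes with enough counts (filterByExpr, minimum count 10) were fitted in edgeR 4.0.16 (R 4.3.3) by group over all 12 libraries, with library sizes and TMM factors without the 13 seminal genes, and tested by quasi-likelihood with Benjamini-Hochberg adjustment at 0.05. "Called" means an adjusted p under 0.05. Depth was 30095656 to 39374682 counts per library. On simulated counts for this comparison (15593 genes, 200 changed), 45% of 2-fold and 90% of 4-fold changes were recovered with 4 false calls. The simulated libraries were independent, with no pairing and none that stood apart like postSTC7, and the changed genes had a mean above 1 CPM. The false calls among the real libraries cannot be read from it. Alternatives used DESeq2 1.42.0 and limma 3.58.1, each library left out, other filters and scalings, FPKM with a pseudocount of 1 or 0.1, and replicate blocks.

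The labels give both groups replicates 1, 5 and 7. Deviations from the group means correlated at 0.236, 0.159 and 0.168 over genes in these 3 pairs. Each lay above 0.1, and the numbers were taken to pair the samples. Of the pairs of unlike number between the groups, only postSTC2 and preSTC5 also passed 0.1, at 0.130. With preCTC, number 1 correlated at 0.220 (postSTC1) and 0.222 (preSTC1), but number 5 at -0.016 (postSTC5) and -0.028 (preSTC5). The block over all libraries joins preCTC by number all the same. Whether a number marks 1 animal cannot be read from these values. This pairing comes from the data and not from a label.

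Genes were named by a rule: the 15 of largest rise and of largest fall called with and without postSTC7, with groups that do not overlap and a mean of at least 10 CPM in the higher group; the 10 most abundant called in both fits; up to 3 called members of smallest p per direction and marked members in each list; and the 5 of largest change lost without postSTC7. It gave 192 genes, of which a part is printed, and some are not reported here. The members, lists and tests were chosen with earlier results of these data known. Symbols of 18531 of 18749 genes matched RefSeq's table of GRCr8.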

Additional observations from a re-analysis of the deposited data

Results flagged for a closer look

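In 154 genes named in the text, the 4 preSTC and the 4 postSTC libraries were each read for 1 library far from the other 3, with a gap to the nearest library that is large for the group's whole range (Dixon's 95% limit). Of these 308 groups 42 held such a library. It was postSTC7 in 17, preSTC7 in 8, postSTC1 in 6, preSTC1, preSTC5 and postSTC5 in 3 each, preSTC9 in 2 and postSTC2 in 0. The seminal genes Semg1, Svs4, Serpina5 and Dnase2b stood apart in both postSTC7 and preSTC7. Chance gives such a library in about 1 in 20 groups only where groups are independent and normally spread. Fcgbpl1, Cd52, Qsox1, Gsdma and Atp13a4 were named because they lost their call without postSTC7. The seminal genes were known to be high there, so these flags of postSTC7 follow from the choice of genes. For Gdf10 and Hoxd11 the flags in preSTC rest on values near 0. The count of 42 therefore describes these genes and is no test against chance.

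The values of postSTC7 above its group were, in CPM, Arg1 at 83.2, Asns at 196, Atf4 at 612, Atp13a4 at 48.0, Cd52 at 3284, Dnase2b at 3084, Fcgbpl1 at 32909.5, Gdf10 at 34.3, Gsdma at 503, Pou3f3 at 44.2, Qsox1 at 6763, Semg1 at 305494, Serpina5 at 4804, Svs4 at 239009 and Trpv6 at 781. It lay below its group for Cobl at 100.2 and Slc6a19 at 224 CPM. Among the preoperative libraries, preSTC7 lay above the other 3 for Dnase2b at 0.546, Gdf10 at 0.0575, Gsta1 at 15.98, Mptx1 at 4.22, Rspo1 at 4.17, Semg1 at 85.3, Serpina5 at 1.03 and Svs4 at 70.1 CPM. The library postSTC1 was high for Cyp1a1 at 69.7, Ezr at 771, Gpx2 at 582 and Lct at 260.2 CPM. It was low for Ltbp3 at 42.4 and Rspo1 at 3.25 CPM. High in preSTC1 were Cat at 117 and Retnlb at 0.404 CPM. Low there was Ass1 at 4.69 CPM. For preSTC5 the high values were Ezh2 at 53.5 and Hoxd11 at 0.135 CPM. Low there was Cyp1a1 at 6.05 CPM. In postSTC5, Nos2 at 24.0 and Sval1 at 350.0 CPM were above the rest. Below the rest was Cfi at 7.09 CPM. A single preSTC9 value was high, St6galnac1 at 26.4 CPM. Another was low, Rrm1 at 136 CPM.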

How the results depend on the processing

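The count of 2815 called genes (1671 higher, 1144 lower) stayed within 1.5 times under TMM with the seminal genes, DESeq2 size factors, no filter, the stricter filter, the 8-library fit and DESeq2. Over the fits without 1 library it ranged from 1628 to 3740, with 980 to 2071 higher and 648 to 1669 lower. Beyond 1.5 times lay limma voom with quality weights, with 4265 called and 1980 lower, limma on log2(FPKM + 1), with 521 (309 higher, 212 lower), and limma on log2(FPKM + 0.1), with 653 (460 higher, 193 lower). On that last scale 70.4% of calls were higher. The cause was not tested. Over the fits without 1 library, the log2 fold change ranged from -0.75 to 0.97 for Asns and from -0.47 to 7.26 for Gsdma. Asns turned to -0.75 without postSTC7 and -0.65 without postSTC1 and postSTC7. Gsdma turned to -0.47 and -0.70 in these fits and to -0.27 with quality weights. The fit without postSTC1 and postSTC7 and the random block were chosen after seeing the data.

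With the replicate number as a block, 12 libraries gave 1760 called genes (1002 higher, 758 lower) and 8 libraries gave 65 (58 higher, 7 lower), where the pairing leaves 2 residual degrees of freedom. With the block as a random effect, 3187 genes were called, 1590 higher and 1597 lower, so that 49.9% of calls were higher against 59.4% in the fit without a block. Of the 144 genes named by rule and called, the random block kept 124, DESeq2 135, quality weights 126, FPKM + 1 54 and FPKM + 0.1 62. Leaving out 1 library kept between 103 (preSTC1) and 138 (postSTC1). Depth limits genes of few counts, such as Pou3f3, Gdf10 and Atp13a4.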
